A study of Mus musculus with 10 samples.

Results

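The genes described here code for the matrix metalloproteases (Mmp), the membrane-anchored and secreted Adam proteases, the secreted Adamts proteases with their Adamts-like relatives, and the Timp inhibitors. They were taken by symbol from the table of read counts, with the authors' representative transcript of each gene. 72 genes of 18594 met that rule, 20 Mmp, 25 Adam (Adamdec1 included), 18 Adamts, 5 Adamts-like and 4 Timp genes. A further 12 genes with matching symbols, among them Mmp8 and Mmp1a, were in the table of FPKM values alone and were listed at 0 in every library.

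RNA was sequenced from 10 libraries of mouse intestine, and the study concerned telocytes, mesenchymal cells that lie under the gut epithelium, as a source of Wnt signals. 3 libraries held Foxl1 positive cells sorted from the mesenchyme of mice of mixed strain, with Foxl1Cre; Rosa-YFP in replicates 1 and 2 and Foxl1Cre; Rosa-mTmG in replicate 3. 3 libraries held Foxl1 negative cells from mice of mixed strain, all with Foxl1Cre; Rosa-mTmG and all from a single sequencing run. 2 libraries held Lgr5 positive cells, with the genotype given as Lr5-EGFP-IRES CreERT2 on a mixed background, replicate 1 male and replicate 2 female. 2 libraries held differentiated epithelium of wild type C57BL/6J mice. The Cre follows the Foxl1 promoter, a driver of the telocyte lineage, and the Lgr5 allele marks crypt base stem cells. Ages and the animal behind each library were not given in the labels used here, so the p-values given here reflect how libraries of a group varied, a spread that may be partly technical. Foxl1 positive replicate 3 shares its reporter with the Foxl1 negative libraries but not its sequencing run, and run and group cannot be told apart.

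Total counts per library were between 4368332 and 11167676 in Foxl1 positive cells, between 1311205 and 13440838 in Foxl1 negative cells, 46415489 and 99628145 in Lgr5 positive cells, and 79516088 and 80910717 in differentiated epithelium. The Foxl1 negative libraries stood apart. They had a count for 1992, 4097 and 5966 genes against 14332 to 16237 in the other 7 libraries. 306 genes reached 100 CPM (counts scaled to library size) in all 7 libraries outside this group, and replicates 1, 2 and 3 of it lacked any count for 55.2%, 27.8% and 11.8% of them. Their summed markers also differed, since hepatocyte genes reached 46328 CPM in replicate 1 and at most 135 in any other library, and B and plasma cell genes 11527 CPM in replicate 3. The 6 fibroblast markers all had counts in Foxl1 positive and in Foxl1 negative cells, with sums of 2908 to 72922 and 6193 to 12229 CPM, and at most 0.789 CPM in epithelial libraries. The tissue label reads mesenchyme on the epithelial libraries too, but Lgr5 positive cells held 5701 and 7913 CPM of crypt base stem cell markers and differentiated epithelium 125273 and 94541 CPM of enterocyte markers. Foxl1 itself reached 0.155, 31.0 and 11.6 CPM in the Foxl1 positive libraries, from only 2 counts in replicate 1, and its highest level elsewhere was 0.0273 CPM. Both mesenchymal groups also held epithelial markers, at 2133, 2268 and 122 CPM in Foxl1 positive and 593, 5909 and 350 CPM in Foxl1 negative libraries. Enterocyte markers summed to 402, 2729 and 33.2 CPM in Foxl1 positive and to 16588, 8170 and 1179 CPM in Foxl1 negative libraries. In sorted bulk samples, fewer cells of a type and less RNA per cell cannot be told apart.

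Metzincin proteases such as Mmp, Adam and Adamts enzymes hold a catalytic zinc ion with 3 residues of a short conserved stretch. Mmps cut collagens and other matrix proteins, Adams release growth factors and receptors from the cell surface, and Adamts enzymes cut proteoglycans or process procollagens. Timps are secreted proteins that block the active site of these enzymes. In the intestine, stromal proteases remodel the matrix under the epithelium, while Mmp7 of mouse Paneth cells activates antimicrobial defensins.

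The zinc-binding stretch separates the enzymes of the list from the members that cannot cut, and it is shown for the members on which the results below turn. In the GENCODE M21 transcripts (GRCm38), the longest annotated coding region of each gene was translated and searched for an 11-residue stretch that starts with histidine and glutamate, has a histidine at residue 5, glycine, asparagine or serine at residue 8, and ends in histidine or aspartate. It was present in 20 of 20 Mmp genes, in 18 of 18 Adamts genes and in 14 of 25 Adam genes, and in none of the 5 Adamts-like or 4 Timp genes. In the lines that follow, capitals mark the codons of residues 1, 5 and 11, the zinc ligands.
Mmp2: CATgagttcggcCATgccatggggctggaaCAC
Mmp14: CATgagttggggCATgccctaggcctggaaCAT
Mmp7: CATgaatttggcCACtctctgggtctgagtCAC
Adam19: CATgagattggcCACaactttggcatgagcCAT
Adam12: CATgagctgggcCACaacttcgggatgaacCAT
Adam10: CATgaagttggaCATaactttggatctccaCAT
Adamts5: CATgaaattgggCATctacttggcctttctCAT
Adamts9: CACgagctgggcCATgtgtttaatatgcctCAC
Adamts4: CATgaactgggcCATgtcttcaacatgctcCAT
Adamdec1: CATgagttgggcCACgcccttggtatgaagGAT
Adamdec1 was the only member whose stretch ended in aspartate, coded by the last capital codon, where all other members with the stretch had histidine. Its bases lie at chr14:68570127-68570159 on the minus strand, those of Mmp2 at chr8:92839279-92839311 on the plus strand and those of Adam19 at chr11:46125050-46125082 on the plus strand. At residue 8, 6 Adamts genes had asparagine or serine in place of glycine, namely Adamts1, Adamts4, Adamts8, Adamts9, Adamts15 and Adamts20. All belong to the class of proteoglycan-cleaving Adamts enzymes, whose remaining member Adamts5 had glycine. The 11 Adams without the stretch included Adam11, Adam22 and Adam23, known as adhesion and receptor proteins of the nervous system, and 8 Adams known mainly from the testis and epididymis.

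Most members had their highest level in Foxl1 positive cells, and few were abundant in epithelium. 50 of the 72 members (69.4%) had their highest group mean in Foxl1 positive cells, beside 30.9% of all 18594 genes, against 7 in Foxl1 negative cells, 10 in Lgr5 positive cells and 5 in the differentiated epithelium. A mean of at least 10 CPM was reached by 39 members in Foxl1 positive cells (54.2%, beside 55.1% of all genes) and by 17 in Foxl1 negative cells (23.6% beside 29.3%). In Lgr5 positive cells 9 members reached it (12.5% beside 51.1%), and in differentiated epithelium 10 did (13.9% beside 46.2%). 66 members had a count in Foxl1 positive cells (91.7%), near the 88.7% of all genes. 13 members (18.1%, beside 3.98% of all genes) had counts in Foxl1 positive libraries and in no other library, among them Adam12, Adam33, Adamts14, Adamts19 and Mmp3. The 6 members without a count in Foxl1 positive cells were Adam2, Adam6b, Adam7, Adam18, Adam1b and Adam32, none of which had a group mean above 1 CPM.

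**Figure D1:**
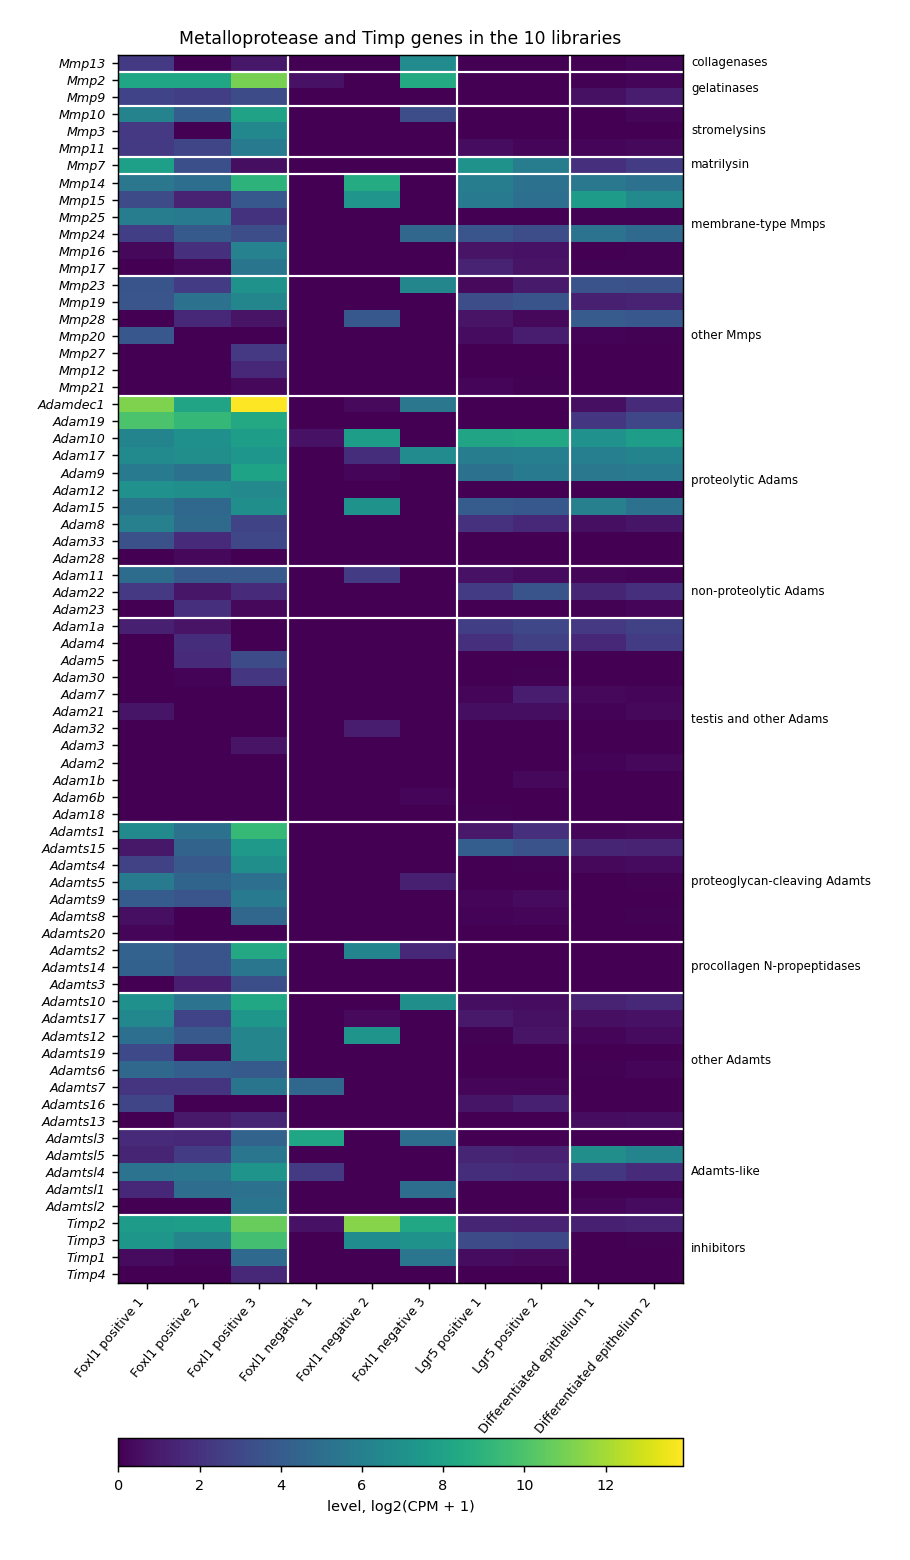
Level of the 72 members in each of the 10 libraries, as log2(CPM + 1) by colour, with genes grouped by role and white lines between roles and between groups. Foxl1 positive libraries are coloured over most roles, Foxl1 negative libraries in scattered cells, and the 2 epithelial groups mainly in membrane-type Mmps and proteolytic Adams.

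Compared per length, on the FPKM scale, different members led each group. In Foxl1 positive cells the leading 3 were Adamdec1 (1001 ± 1468, SD, n = 3), Mmp2 (117 ± 155) and Timp2 (74.1 ± 100.2). In Foxl1 negative cells they were Timp2 (84.4 ± 108.5, n = 3), Mmp2 (20.4 ± 35.4) and Mmp14 (13.6 ± 23.5). Lgr5 positive cells were led by Mmp7 (63.9 ± 36.4, n = 2), Adam10 (38.0 ± 3.77) and Mmp14 (10.6 ± 3.44), and differentiated epithelium by Adamtsl5 (16.1 ± 4.49, n = 2), Adam10 (15.5 ± 6.29) and Mmp15 (14.3 ± 6.61). In the mesenchymal groups the SD was near or above the mean, but that SD is between libraries, and genes can be ranked within each library. Adamdec1 lay above Mmp2 and Mmp2 above Timp2 in every Foxl1 positive library. The order of the leading 3 changed between libraries in Foxl1 negative cells and in differentiated epithelium, as did that of Mmp7 and Adam10 in Lgr5 positive cells.

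The mesenchymal replicates were far from alike. Of the 66 members with a count in Foxl1 positive cells, 45 were highest in replicate 3, 16 in replicate 1 and 5 in replicate 2, while over all genes with a count the shares were 40.7%, 29.6% and 29.7%. Replicate 3 was also the library with the most fibroblast marker RNA, 72922 CPM against 6096 and 2908, and the only Foxl1 positive library with the Rosa-mTmG reporter. The part of these in the members' levels was not tested.

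Adamdec1, a small secreted Adam known from stromal and phagocytic cells of the gut, was the highest member. It stood at 2409, 276 and 15242 CPM in Foxl1 positive replicates 1, 2 and 3, at 0, 0.266 and 44.1 CPM in Foxl1 negative cells, at 0.0201 and 0 CPM in Lgr5 positive cells and at 0.492 and 2.22 CPM in differentiated epithelium. Every Foxl1 positive library was above every other library. This gene alone made up 51.7%, 18.5% and 69.9% of the summed FPKM of all 72 members in the 3 Foxl1 positive libraries, and at most 3.89% in any other library. It was called higher than in Lgr5 positive cells, which held 1 count in all (adjusted p = 0.0317), and than in differentiated epithelium (log2 fold change 12.23 ± 2.71, SE, adjusted p = 0.0322), by edgeR's quasi-likelihood test with Benjamini-Hochberg adjustment over all genes. Against Foxl1 negative cells the log2 fold change of 9.03 ± 3.36 missed the threshold of 0.05 (adjusted p = 0.0699). Its neighbours on chromosome 14, Adam28 and Adam7, lay with it in 158.5 kb (69115394 to 69273899, mm9). Adam28 had a highest level of 0.224 CPM and Adam7 of 1.15 CPM in any library.

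The gelatinases Mmp2 and Mmp9 cut denatured collagen and basement membrane. Mmp2 stood at 302, 302 and 2116 CPM in Foxl1 positive cells and at 0.605, 0 and 356 CPM in Foxl1 negative cells. In epithelium it was at or under 0.123 CPM in all 4 libraries. It was called higher in Foxl1 positive than in Lgr5 positive cells, which held 3 counts in all (adjusted p = 0.0181), and than in differentiated epithelium (log2 fold change 13.34 ± 1.86, adjusted p = 0.0151), and the mesenchymal groups overlapped. Mmp9, known from neutrophils, was far lower, at 5.97, 5.05 and 8.42 CPM in Foxl1 positive cells, 0 in Foxl1 negative and Lgr5 positive cells, and 0.547 and 1.06 CPM in differentiated epithelium. Mmp9 was at least 337-fold higher than in Lgr5 positive cells (adjusted p = 0.0471). Here and below, "at least" sets the mean against the level that 3 counts over a group without counts would give, 0.0192 CPM in Lgr5 positive and 0.0389 CPM in differentiated cells. Such a bound covers counting error only and assumes that the libraries of a group share 1 level. No bound or p is given for genes without a count in Foxl1 negative cells, because every such gene tested was called, all 4028 of them. The 4 neutrophil markers summed to 15.1, 0.224 and 26.1 CPM in Foxl1 positive cells and to 0 in Foxl1 negative and Lgr5 positive cells, and their part in the Mmp9 level was not tested.

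The stromelysins Mmp3, Mmp10 and Mmp11, the collagenase Mmp13 and 4 other members are neighbours or near relatives. Mmp10 stood at 74.3, 16.9 and 255 CPM in the Foxl1 positive group, at 0, 0 and 8.63 CPM in Foxl1 negative cells, at 0 in Lgr5 positive cells and at 0 and 0.197 CPM in differentiated epithelium. It was at least 6003-fold higher than in Lgr5 positive cells (adjusted p = 0.0263), and higher than in differentiated epithelium (log2 fold change 10.23 ± 2.09, adjusted p = 0.0274). Mmp3 stood at 3.88, 0 and 90.3 CPM in Foxl1 positive cells and had no count in the other groups, and it passed no test. Mmp11 stood at 4.19, 6.62 and 54.9 CPM in Foxl1 positive cells, had no count in Foxl1 negative cells and reached at most 0.383 CPM in epithelium. Mmp13 went another way, with 104 CPM in Foxl1 negative replicate 3 and at most 4.11 CPM in any other library.

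7 Mmp genes of the count table lie within 426.9 kb of chromosome 9 (7272514 to 7699416, mm9), with Mmp1a, Mmp1b and Mmp8 of the FPKM table, listed at 0, between them. Their order is Mmp13, Mmp12, Mmp3, Mmp10, Mmp27, Mmp20 and Mmp7. They differed in the library where they were highest. Mmp13 was highest in Foxl1 negative cells, Mmp12, Mmp3, Mmp10 and Mmp27, which follow each other among the 7, in Foxl1 positive replicate 3, and Mmp20 and Mmp7 in Foxl1 positive replicate 1 (12.8 and 231 CPM). Promoters of these genes except Mmp27, which had neither motif described below, are shown because they share letters that most other members lack. In the RefSeq promoters (GRCm38.p6, 250 bases before to 50 after each start), 43 of the 72 members had an entry. The AP-1 motif TGANTCA, searched on both strands, was in 8 of the 48 promoters of members and in 7.81% of all 32851 promoters, and the TATA motif TATAAA in 10 of 48 and in 13.6%. Both motifs together were in 6 of the 9 promoters of the chromosome 9 genes, in 0 of the 39 promoters of other members, and in 1.54% of all promoters. The motifs do not overlap each other in these 6. The lines that follow give the 100 bases before the start and the 10 bases from it, with the 2 motifs in capitals.
Mmp13: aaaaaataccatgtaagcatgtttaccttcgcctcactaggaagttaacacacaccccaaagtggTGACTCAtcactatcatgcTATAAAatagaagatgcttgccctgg
Mmp12: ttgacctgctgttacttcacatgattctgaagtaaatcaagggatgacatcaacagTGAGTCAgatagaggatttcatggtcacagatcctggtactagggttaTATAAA
Mmp3: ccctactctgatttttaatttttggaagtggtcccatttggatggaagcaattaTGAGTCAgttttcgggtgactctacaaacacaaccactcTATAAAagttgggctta
Mmp10: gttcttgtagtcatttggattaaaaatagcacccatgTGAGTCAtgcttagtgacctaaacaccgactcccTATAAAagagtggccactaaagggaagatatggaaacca
Mmp20: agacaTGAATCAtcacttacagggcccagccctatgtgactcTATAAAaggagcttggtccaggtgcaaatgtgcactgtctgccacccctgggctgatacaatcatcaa
Mmp7: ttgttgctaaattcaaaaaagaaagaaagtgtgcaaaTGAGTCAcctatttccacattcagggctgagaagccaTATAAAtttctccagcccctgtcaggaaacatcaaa
The AP-1 motif began 63 bases before the start in Mmp10 and in Mmp7, whose windows lie at chr9:7502242-7502351 and chr9:7691990-7692099 on the plus strand. In the other genes shown it began from 35 bases (Mmp13) to 95 bases (Mmp20) before the start. The TATA motif began 29 and 26 bases before the start in Mmp10 and Mmp7. It began 7 bases before the start in Mmp3, 58 before in Mmp20 and 4 after it in Mmp12, so its position was not shared. A like arrangement thus stood before Mmp10 and Mmp7, whose patterns differed, Mmp10 with no count and Mmp7 with 132 and 55.9 CPM in Lgr5 positive cells. A match describes letters and not binding of a factor.

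**Figure D2:**
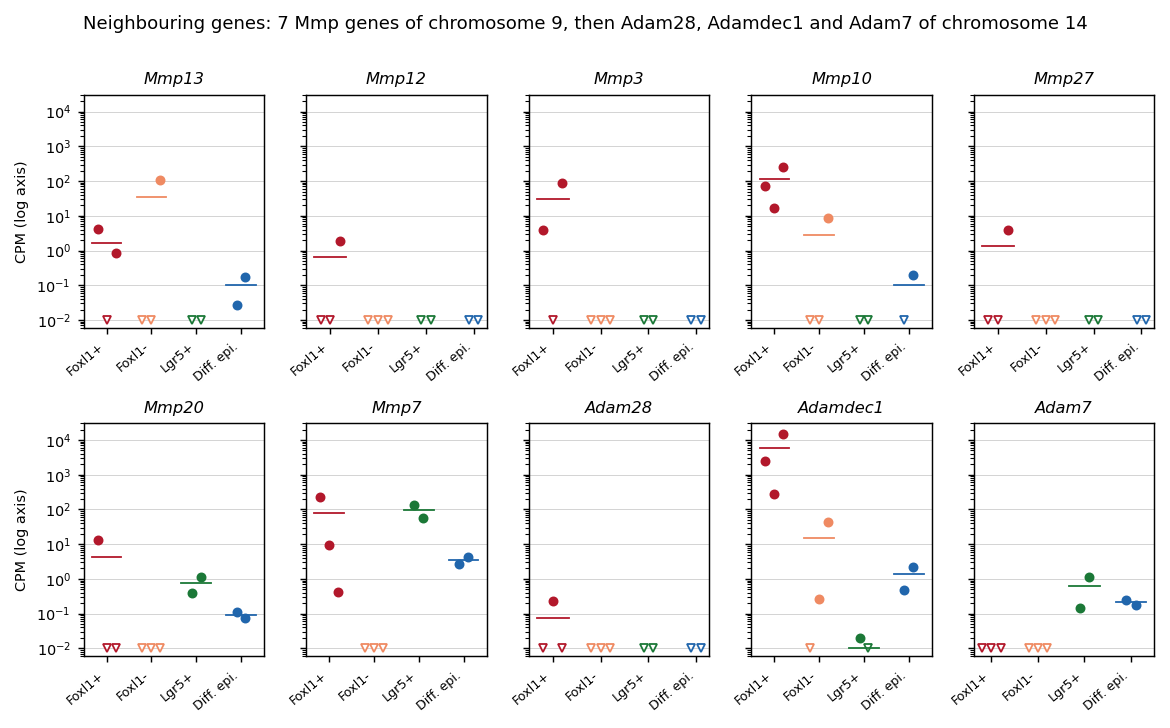
Level of the 7 nearby Mmp genes of chromosome 9 and of the 3 neighbouring Adam genes of chromosome 14 in every library (CPM, log axis). Circles are libraries, open triangles at the bottom are libraries with no count, and lines are group means. Mmp7 is the only Mmp of its row with Lgr5 positive libraries above 10 CPM, and Adamdec1 stands above 275 CPM in all Foxl1 positive libraries while Adam28 and Adam7 stay under 2 CPM.

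Mmp7, the matrilysin of Paneth cells, stood at 231, 9.54 and 0.421 CPM in Foxl1 positive replicates 1, 2 and 3, and was not counted in the Foxl1 negative group. It stood at 132 and 55.9 CPM in Lgr5 positive cells and at 2.63 and 4.26 CPM in differentiated epithelium. The Paneth markers Lyz1, Ang4, Defa24 and Itln1 summed to 5802, 872 and 82.1 CPM in the same Foxl1 positive libraries, to 4597 and 990 CPM in Lgr5 positive cells and to 1619 and 727 CPM in differentiated epithelium. Mmp7 and these markers thus fell in the same order within the Foxl1 positive libraries, and the part of epithelial RNA in the Mmp7 level was not tested. Between the epithelial groups Mmp7 was higher in Lgr5 positive cells (log2 fold change 4.77 ± 0.53, adjusted p = 1.18e-04).

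The membrane-type Mmps cut at the cell surface, and Mmp14 of this class activates the Mmp2 proenzyme together with Timp2. Mmp14 was measured in all groups, at 44.6, 31.8 and 499 CPM in Foxl1 positive cells, 0, 371 and 0 CPM in Foxl1 negative cells, 56.8 and 35.3 CPM in Lgr5 positive cells and 46.4 and 35.9 CPM in differentiated epithelium. The groups overlapped in every comparison and none passed the test. Mmp15 had the opposite slant, at 207 and 99.5 CPM in differentiated epithelium, 54.4 and 33.3 CPM in Lgr5 positive cells and 7.99, 1.57 and 13 CPM in Foxl1 positive cells. In Foxl1 negative cells Mmp15 stood at 0, 152 and 0 CPM, and the part of epithelial RNA in that level was not tested. Mmp15 was the only member called lower in Foxl1 positive cells in any comparison, against differentiated epithelium, where it fell by 4.19 ± 0.95 on the log2 scale (adjusted p = 0.0339). Mmp25, anchored by lipid and known from leukocytes, stood at 56.9, 55.0 and 3.16 CPM in Foxl1 positive cells and at or under 0.074 CPM in every other library. Mmp25 was at least 1996-fold higher than in Lgr5 positive cells (adjusted p = 0.0391) and higher than in differentiated epithelium (log2 fold change 9.34 ± 1.84, adjusted p = 0.0257). The 4 T cell markers summed to 366, 390 and 12.6 CPM in the same 3 libraries, though Cd8a alone was at 0.620, 0.337 and 3.998 CPM. Their sums were 344 CPM in Foxl1 negative replicate 3, where Mmp25 had no count, and 169.5 and 180.1 CPM in differentiated epithelium. The 4 neutrophil markers did not follow Mmp25, with the sums given for Mmp9, and the part of either list in the Mmp25 level was not tested. Mmp16 and Mmp17 were carried by Foxl1 positive replicate 3, with 71.7 and 40.8 CPM there and at most 2.69 and 1.53 CPM in any other library.

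Among the remaining Mmps, Mmp19 and Mmp23 were measured in all Foxl1 positive libraries. Mmp19, an enzyme of basement membranes, stood at 11.8, 36.6 and 82.5 CPM there, at 0 in Foxl1 negative cells, at 8.74 and 11.1 CPM in Lgr5 positive cells and at 1.31 and 1.53 CPM in differentiated epithelium. Mmp23 stood at 11, 4.49 and 132 CPM in the Foxl1 positive group, at 81.3 CPM in Foxl1 negative replicate 3 alone, and at 10.6 and 9.81 CPM in differentiated epithelium. Mmp28 was a gene of differentiated epithelium, at 14.6 and 12.7 CPM, with 13.4 CPM in Foxl1 negative replicate 2 and at most 2.02 CPM elsewhere. Foxl1 negative replicate 2 held 5909 CPM of epithelial markers, and their part in its Mmp28 level was not tested. Mmp12, Mmp20, Mmp21 and Mmp27 had no group mean above 5 CPM.

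The meltrins Adam12 and Adam19, which shed growth factors such as neuregulin and heparin-binding EGF, were called against both epithelial groups. Adam12 stood at 132, 119 and 91.5 CPM in Foxl1 positive cells and had no count in any of the other 7 libraries. Adam19 stood at 980, 599 and 334 CPM in Foxl1 positive cells and at 3.58 and 6.73 CPM in differentiated epithelium. It had no count in Foxl1 negative or Lgr5 positive cells. The Foxl1 positive libraries thus lay above all others in both genes. Adam12 was at least 5933-fold higher than in Lgr5 positive cells (adjusted p = 0.0150) and at least 2931-fold higher than in differentiated epithelium (adjusted p = 0.0121). For Adam19 the bound was 33186-fold against Lgr5 positive cells (adjusted p = 0.0156), and the log2 fold change against differentiated epithelium was 7.19 ± 1.08 (adjusted p = 0.0158).

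The sheddases Adam10 and Adam17, which release Notch and EGF family signals, had no such pattern. Adam10 stood at 75.6, 124 and 215 CPM in Foxl1 positive cells, 0.605, 222 and 0 CPM in Foxl1 negative cells, 273 and 311 CPM in Lgr5 positive cells and 129 and 222 CPM in differentiated epithelium. Adam17 stood at 96.6, 116 and 157 CPM in Foxl1 positive cells, 0, 2.53 and 102 CPM in Foxl1 negative cells, 58.9 and 63.6 CPM in Lgr5 positive cells and 62.1 and 76.5 CPM in differentiated epithelium. Neither passed the test in any comparison, and the log2 fold changes among Foxl1 positive and epithelial groups were from -0.89 ± 0.60 to 1.21 ± 0.53. Adam9 stood at 53.3, 37.3 and 263 CPM in Foxl1 positive cells and between 35.5 and 54.0 CPM in the epithelial libraries, and its highest level in Foxl1 negative cells was 0.133 CPM. Adam8, an Adam of leukocytes, stood at 64.4, 26.7 and 6.10 CPM in Foxl1 positive cells and lacked any count in the Foxl1 negative group. Adam11 stood at 29.4, 14.4 and 13.5 CPM in Foxl1 positive cells and at most at 0.604 CPM in epithelium, and was called against differentiated epithelium (log2 fold change 7.20 ± 1.26, adjusted p = 0.0208). Of the 12 testis and other Adams, only Adam1a had a group mean of at least 5 CPM, with 5.04 and 6.84 CPM in Lgr5 positive cells.

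**Figure D3:**
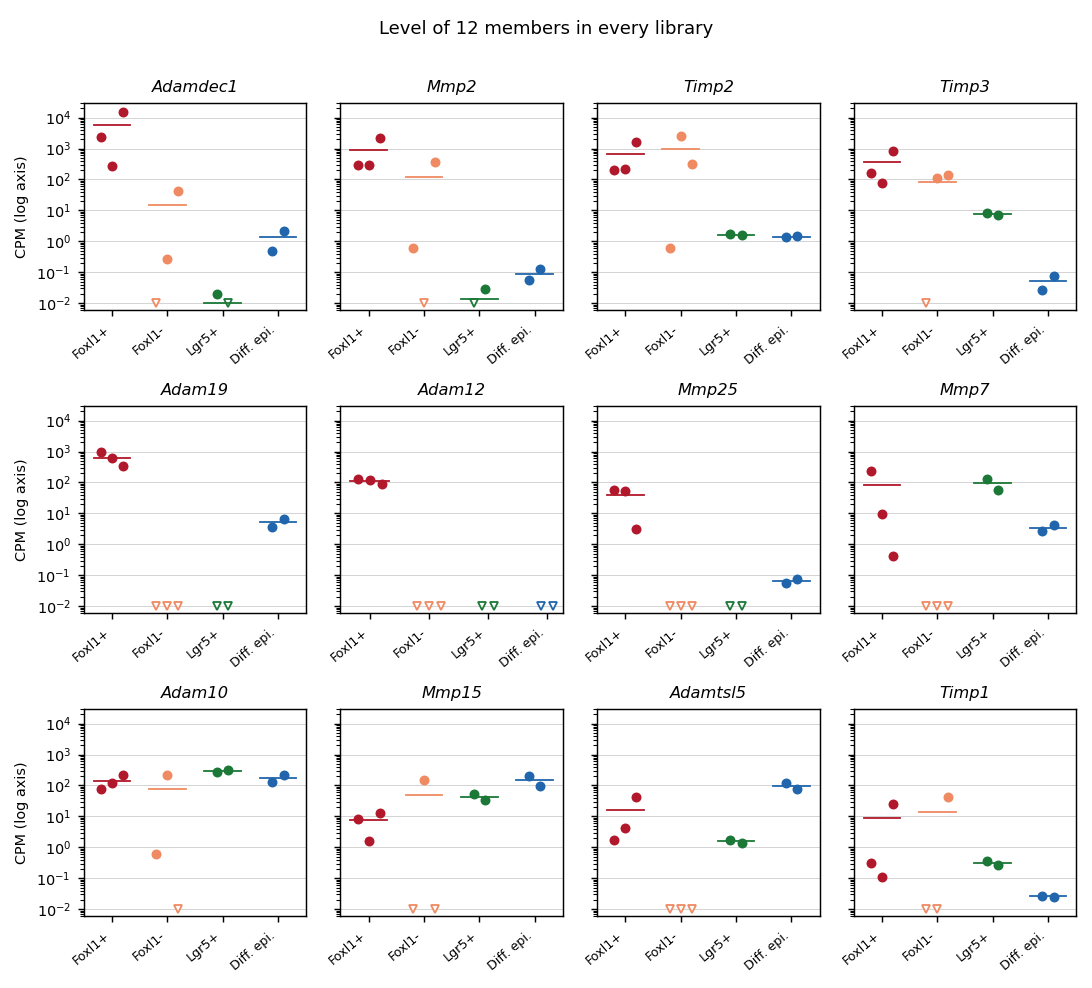
Level of 12 members in every library (CPM, log axis). Circles are libraries, open triangles at the bottom are libraries with no count, and lines are group means. Adam12 stands between 91.5 and 132 CPM in Foxl1 positive libraries and at no count in the other 7, while Adam10 stands between 75.6 and 311 CPM in the Foxl1 positive and epithelial libraries.

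Adamts1, Adamts4, Adamts5, Adamts9 and Adamts15 cut large proteoglycans such as versican and aggrecan. Adamts1 stood at 96.5, 35.7 and 628 CPM in the Foxl1 positive group, at 0 in Foxl1 negative cells, at 0.907 and 2.80 CPM in Lgr5 positive cells and at 0.191 and 0.247 CPM in differentiated epithelium. Adamts5 stood at 49.2, 21.3 and 33.2 CPM in the Foxl1 positive group, at 0, 0 and 1.35 CPM in Foxl1 negative cells, and at 0.0740 CPM in 1 epithelial library alone. Adamts9 stood at 15.3, 11.7 and 49.9 CPM in Foxl1 positive cells and at most at 0.310 CPM in any other library. Adamts4 followed at 5.43, 13.7 and 121 CPM in Foxl1 positive cells and at most 0.320 CPM elsewhere. In all of these the Foxl1 positive libraries lay above every other library. Adamts4 and Adamts9 were called against both epithelial groups, as was Adamts5 (at least 1799-fold against Lgr5 positive cells, adjusted p = 0.0172), and Adamts1 against differentiated epithelium (log2 fold change 10.26 ± 1.83, adjusted p = 0.0216). Adamts15 was not such a gene, with 0.853, 20.3 and 183 CPM in Foxl1 positive cells and 16.9 and 10.8 CPM in Lgr5 positive cells. Adamts8, of the same class, stood at 0.465, 0 and 22.9 CPM in Foxl1 positive cells and at most at 0.141 CPM elsewhere. Adamts1 and Adamts5 lie next to each other within 107.3 kb of chromosome 16 (85794073 to 85901370, mm9), and both were highest in the Foxl1 positive group.

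Adamts2, Adamts3 and Adamts14 remove the amino-terminal propeptide of fibrillar procollagens. Adamts14 stood at 19.1, 11 and 42.3 CPM in Foxl1 positive cells and had no count in any other library, and it was at least 1255-fold higher than in Lgr5 positive cells (adjusted p = 0.0240) and at least 620-fold higher than in differentiated epithelium (adjusted p = 0.0168). Adamts2 stood at 19.4, 11.2 and 338 CPM in the Foxl1 positive group, at 0, 76.1 and 1.99 CPM in Foxl1 negative cells and at 0 in all epithelial libraries. It was at least 6393-fold higher than in Lgr5 positive cells (adjusted p = 0.0486) and at least 3158-fold higher than in differentiated epithelium (adjusted p = 0.0323). Adamts3 had counts in Foxl1 positive replicates 2 and 3 alone, at 1.23 and 9.05 CPM.

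Of the other Adamts genes, Adamts10, which binds fibrillin, stood at 126, 38.7 and 308 CPM in the Foxl1 positive group, at 0, 0 and 121 CPM in Foxl1 negative cells and at 0.366 to 2.07 CPM in epithelium. Adamts6 was even between Foxl1 positive libraries, at 24.7, 16.6 and 14.1 CPM, and at most at 0.173 CPM elsewhere. Adamts17 stood at 88.1, 5.95 and 165 CPM in Foxl1 positive cells and at most at 0.907 CPM elsewhere. Adamts19 stood at 7.52, 0.224 and 79.1 CPM in Foxl1 positive cells and had no count elsewhere. Adamts12 and Adamts7 overlapped between the mesenchymal groups, because Adamts12 reached 146 CPM in Foxl1 negative replicate 2 and Adamts7 reached 24.8 CPM in replicate 1. Adamts13, the protease that cuts von Willebrand factor, was at most at 1.68 CPM in any library. The Adamts-like genes lack a protease domain and bind microfibrils. Adamtsl4 stood at 37.7, 42.3 and 147 CPM in Foxl1 positive cells and between 2.22 and 3.77 CPM in epithelium, and Adamtsl2 at 41.4 CPM in Foxl1 positive replicate 3 and at most 0.320 CPM elsewhere. Adamtsl1 stood at 1.94, 30.8 and 35.1 CPM in Foxl1 positive cells, at 31.1 CPM in Foxl1 negative replicate 3 and at 0 elsewhere. Adamtsl3 was at 294 CPM in Foxl1 negative replicate 1, at 31.1 CPM in replicate 3 and between 2.02 and 20.8 CPM in Foxl1 positive cells. Adamtsl5 was the epithelial member of this family, at 118 and 75 CPM in differentiated epithelium against 1.73 and 1.38 CPM in Lgr5 positive cells.

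Among the inhibitors, Timp2 and Timp3 were abundant in every Foxl1 positive library and Timp1 and Timp4 were not. Timp2 stood at 202, 219 and 1615 CPM in the Foxl1 positive group, at 0.605, 2622 and 322 CPM in Foxl1 negative cells, at 1.69 and 1.60 CPM in Lgr5 positive cells and at 1.34 and 1.53 CPM in differentiated epithelium. The mesenchymal groups overlapped over their whole ranges (log2 fold change 0.16 ± 2.21, adjusted p = 0.983), and both epithelial groups lay below every Foxl1 positive library (log2 fold change of Foxl1 positive cells 8.82 ± 1.52, adjusted p = 0.0305, against Lgr5 positive cells and 9.01 ± 1.56, adjusted p = 0.0208, against differentiated epithelium). Timp3, which stays bound to matrix and also blocks Adam17, stood at 161, 78.9 and 844 CPM in the Foxl1 positive group, at 0, 108 and 142 CPM in Foxl1 negative cells, at 8.38 and 7.22 CPM in Lgr5 positive cells and at 0.0273 and 0.0740 CPM in differentiated epithelium. Its step between the epithelial groups was called (log2 fold change 7.18 ± 0.65 for Lgr5 positive minus differentiated, adjusted p = 4.96e-05). Timp1, the inducible member of the family, stood at 0.310, 0.112 and 26.1 CPM in Foxl1 positive cells and at 42.1 CPM in Foxl1 negative replicate 3, with no count in the other 2 Foxl1 negative libraries. Per length, Timp1 lay above Timp3 in Foxl1 negative replicate 3, at 24.8 against 15.9 FPKM, and below it in Foxl1 negative replicate 2. Timp4 had counts in Foxl1 positive replicate 3 alone, at 1.89 CPM. The genes whose CPM ranked most like Timp1 over the 10 libraries were Pdia4 and Cmtm7, each with a Spearman correlation of 1, and Hoxb2 with 0.988, among 13254 genes compared. For Adamdec1 they were Nbl1, Fbln5 and Ifi204 with 0.973, 0.963 and 0.960. These correlations describe libraries that share group, depth and preparation, and no p is given for them.

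The balance of inhibitor to Mmp RNA was higher in mesenchymal than in epithelial libraries. Summed Timp FPKM divided by summed Mmp FPKM was 0.195, 0.450 and 0.518 in Foxl1 positive libraries, 0.840, 4.06 and 0.747 in Foxl1 negative libraries, 0.0139 and 0.0249 in Lgr5 positive libraries and 0.00439 and 0.00757 in the differentiated epithelium. The 4 groups did not overlap. In Lgr5 positive libraries Mmp7 alone held 89.6 and 38.2 FPKM of the summed Mmp values of 114 and 55.1 FPKM. The part of Paneth cell RNA in that ratio was not tested. With 1311205 counts and 6 members counted, Foxl1 negative replicate 1 gave this ratio from Timp2 and Mmp2 at 1 count each.

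The comparison of Foxl1 positive with Lgr5 positive cells asks which of these genes distinguish the subepithelial cells from the stem cells beside them. 17 of 52 members tested were called higher in Foxl1 positive cells, a share of 32.7% beside 4.84% of all 14259 genes tested, and none was called lower, beside 0.884% of all genes. At an unadjusted p under 0.05 there were 37 members. 32 members lay above the Lgr5 positive libraries without overlap (19.7% of all genes) and 5 below (33% of all genes). The median log2 fold change over the members tested was 6.98 against 0.06 over all genes. The tested members are those with enough counts in a group, so these shares are a description. Of the 17 members tested without a count in Lgr5 positive cells, 9 were called, beside 187 of 553 such genes over all. The called members were both gelatinases, Mmp10, Mmp25, Adam12, Adam19, Adamdec1, 3 of 5 proteoglycan-cleaving Adamts tested, 2 of 3 procollagen propeptidases, Adamts6, Adamts10, Adamtsl1, Adamtsl4 and Timp2. No member was called in this comparison without Foxl1 positive replicate 1, Foxl1 positive replicate 2, Lgr5 positive replicate 1 or Lgr5 positive replicate 2, though 27 to 37 members had an unadjusted p under 0.05 in those fits, and 25 were called without Foxl1 positive replicate 3.

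Against differentiated epithelium, 27 of 50 members tested were called higher in Foxl1 positive cells (54.0% beside 10.6% of all 13876 genes tested) and Mmp15 alone was called lower (7.19% of all genes were). 31 members lay above without overlap (26.7% of all genes) and 5 below (34% of all genes), and the median log2 fold change was 7.33 against 0.32 over all genes. The calls took in 5 of 9 proteolytic Adams tested, 4 of 5 proteoglycan-cleaving Adamts, 5 of 7 other Adamts, 3 of 4 Adamts-like genes and both Timps tested. Of the 11 members tested without a count in differentiated epithelium, 7 were called, beside 210 of 402 such genes over all. Of at most 50 members tested in both comparisons, 16 were called higher than in both epithelial groups, as were 4.07% of the 13668 genes tested in both. No member was called without differentiated epithelium replicate 1 or 2, with 30 members at an unadjusted p under 0.05 in each case. The 2 comparisons share the Foxl1 positive libraries, and all 10 libraries in a single fit gave no call in either, with 28 and 29 members at an unadjusted p under 0.05.

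**Figure D4:**
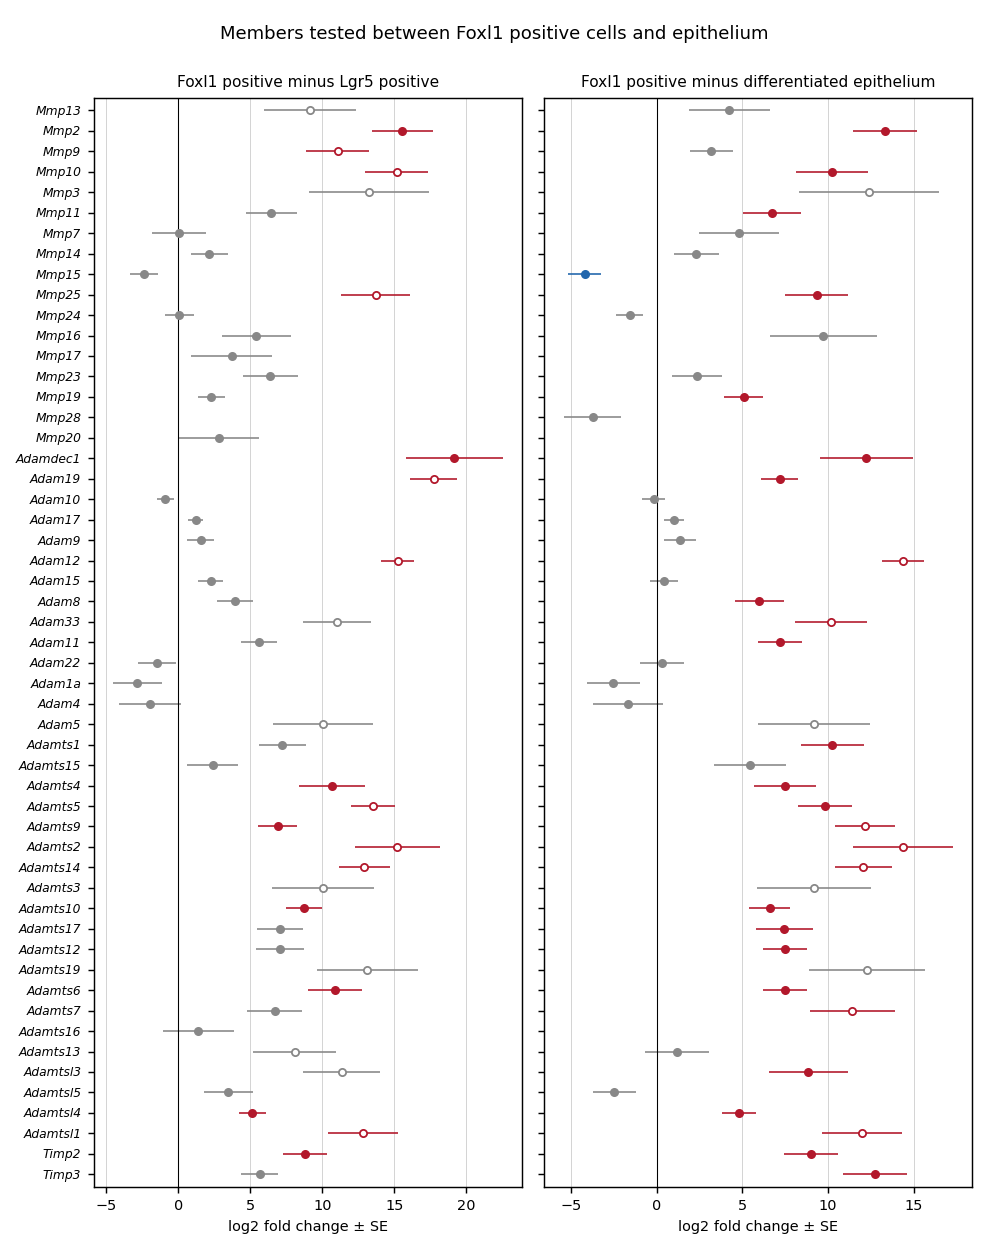
Log2 fold change ± SE of each member tested between Foxl1 positive cells and Lgr5 positive cells (left) or differentiated epithelium (right). Red is called higher, blue called lower and grey not called, and open circles mark genes with no count in the epithelial group, whose fitted size depends on the fit's prior count. Mmp15 on the right is the 1 blue point.

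The comparison with Foxl1 negative cells addresses the 2 sorts of the mesenchyme. 16 of 37 members tested were called higher in Foxl1 positive cells and none lower. That share, 43.2%, lay beside 42.2% of all 11204 genes tested called higher and 0% called lower, so it is no result about these genes. 14 of the 16 had no count in any Foxl1 negative library, and all 4028 genes tested without a count there were called. Mmp14, Mmp15, Adam10, Adam15, Adamts12, Timp2 and Timp3 each had a level above 100 CPM in Foxl1 negative replicate 2, Mmp2, Mmp13, Adam17, Adamts10, Timp2 and Timp3 in replicate 3, and Adamtsl3 in replicate 1. 21 members lay above the Foxl1 negative libraries without overlap (50.4% of all genes) and 0 below (0.946% of all genes). Of at most 37 members tested in all 3 comparisons, 7 were called higher in Foxl1 positive cells than in each other group, beside 2.74% of the 11195 genes tested in all 3. They were Adam12, Adam19, Adamts4, Adamts6, Adamts9, Adamts14 and Mmp25, and none of the 7 had a count in Foxl1 negative cells. When the fit held only genes with a count in a Foxl1 negative library, no member was called by edgeR, with 3 at an unadjusted p under 0.05. The count of members called was 25 without Foxl1 negative replicate 2 and 29 without Foxl1 negative replicate 3.

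Within the epithelium, the members split between stem cells and differentiated cells. 14 of 39 tested were called higher in Lgr5 positive cells and 11 lower, beside 34.4% and 31.9% of all 14534 genes tested, so the members moved about as often as other genes. 18 lay above without overlap (44% of all genes) and 11 below (40.1% of all genes). Those higher in Lgr5 positive cells were Mmp7, Mmp16, Mmp17, Mmp19, Mmp20, Adam8, Adam22, Adamts1, Adamts7, Adamts9, Adamts15, Adamts16, Timp1 and Timp3. Those lower were Mmp9, Mmp15, Mmp23, Mmp24, Mmp28, Adam15, Adam19, Adamdec1, Adamts10, Adamts13 and Adamtsl5. Adamtsl5 fell by 5.95 ± 0.41 on the log2 scale in Lgr5 positive cells (adjusted p = 2.03e-05) and Mmp28, an epithelial Mmp, fell by 4.94 ± 0.60 (adjusted p = 1.90e-04). Mmp24 stood at 11.8 and 8.67 CPM in Lgr5 positive cells and at 37.9 and 25.4 CPM in differentiated epithelium (log2 fold change -1.62 ± 0.37, adjusted p = 0.00502). Adam15 stood at 15.6 and 13.3 CPM against 64.6 and 36.2 CPM (log2 fold change -1.80 ± 0.37, adjusted p = 0.00300). Adam22, a receptor for Lgi proteins, stood at 4.33 and 11.1 CPM against 1.75 and 2.64 CPM (log2 fold change 1.81 ± 0.55, adjusted p = 0.0178). Several calls rest on few reads, and Mmp9, Mmp16, Mmp17, Mmp20, Timp1, Adamts7, Adamts9, Adamts13 and Adamts16 were under 2 CPM in each epithelial library. Adamts7, Adamts9 and Adamts16 had no count in differentiated epithelium, where all 143 such genes tested were called. Of those called lower, Adam19, Mmp9 and Adamts13 had no count in Lgr5 positive cells. Without differentiated epithelium replicate 1, 7 members were called higher.

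**Figure D5:**
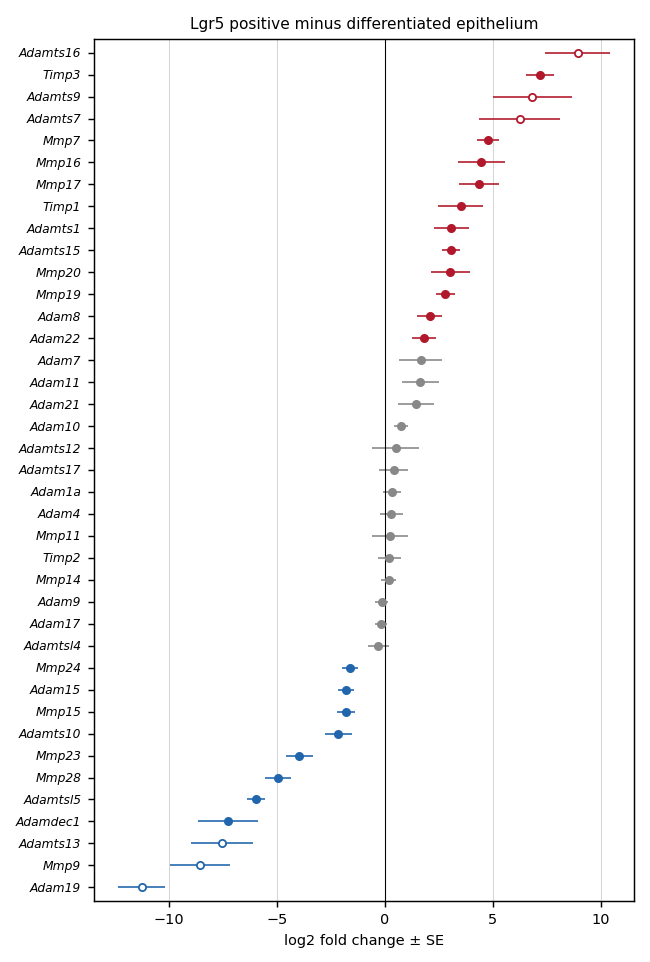
Log2 fold change ± SE of the 39 members tested between Lgr5 positive cells and differentiated epithelium, from the highest to the lowest. Red is called higher in Lgr5 positive cells, blue called lower and grey not called. Open circles mark genes with no count in the group where they are lower, and their fitted size depends on the fit's prior count. The points run from Adamts16 at the top to Adam19 at the bottom.

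Other genes of matrix breakdown gave a setting for these values. Of 8 proteins cut by Adamts enzymes or found beside them that were tested (Vcan, Dcn, Bgn, Fn1, Col1a1, Col1a2, Col3a1 and Vwf), 8 were called higher in Foxl1 positive cells than in Lgr5 positive cells, 8 than in differentiated epithelium and 0 than in Foxl1 negative cells. Dcn, Col1a1, Col1a2 and Col3a1 are also among the 6 fibroblast markers. Vcan, the proteoglycan versican, stood at 389, 137 and 280 CPM in Foxl1 positive cells and at most at 2.77 CPM in epithelium. Reck, a membrane inhibitor of Mmps, stood at 31.2, 17.4 and 115 CPM in Foxl1 positive and at 0, 0.665 and 200 CPM in Foxl1 negative cells. Reck was at most at 0.0657 CPM in epithelium, and was called against both epithelial groups (adjusted p = 0.0298 and 0.0152). Pcolce, which enhances procollagen processing by Bmp1, was called in both as well (adjusted p = 0.0199 and 0.0190). Pcolce stood at 114, 55.9 and 360 CPM in Foxl1 positive and at 0, 453 and 81.1 CPM in Foxl1 negative cells. For both genes the mesenchymal groups overlapped. In the plasminogen system, whose plasmin activates Mmps, 0 of 7 genes tested were called against Lgr5 positive cells and 2 of 7 against differentiated epithelium, Plau and Serpine2.

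Between the epithelial groups, 3 such lists went one way. All 6 activating proteases tested were called lower in Lgr5 positive cells, led by Furin, the convertase that activates membrane-type Mmps and Adams, at 33 and 24.6 CPM against 421 and 260 CPM (adjusted p = 8.44e-05). Of these, Mcpt1 and Mcpt2 rest on few reads, with no count in Lgr5 positive cells and at most 2.87 and 0.863 CPM in differentiated epithelium. All 6 cathepsins, lysosomal proteases, were called lower, led by Ctss (adjusted p = 8.23e-05). All 3 astacin metalloproteases tested were lower too, and the brush border meprin Mep1b stood at 51.9 and 57.8 CPM against 4580 and 5626 CPM (adjusted p = 1.31e-05). The rhomboid and tetraspanin partners of Adam17 and Adam10 were mixed, with 2 of 7 higher and 5 lower, and 31.9% of all genes were lower in this comparison.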

How the data were processed

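RNA was sequenced from 10 libraries in 4 groups. Per the labels' protocols, intestine was taken apart with Dispase and trypsin, cells were sorted, and column-purified RNA went into New England Biolabs libraries. Counts (raw whole numbers of reads) were deposited by the authors for 24082 transcripts of 18594 genes. They also deposited FPKM values (scaled to length and library size) of 29510 transcripts with mm9 positions. Per the submitters' processing notes, CASAVA 1.8.2, edgeR and mm9 were used. The sources used here name neither aligner nor counter nor strand use, so reads of antisense or near-identical genes (Adam1a and Adam1b) may be shared.

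The authors' representative transcript stood for each gene (13 members have several). Tests were run in R 4.3.3 with edgeR 4.0.16 on the counts of each pair of groups alone (TMM, filterByExpr, robust glmQLFit, glmQLFTest, 2-sided, Benjamini-Hochberg over all genes tested, adjusted p under 0.05). The filter kept 37, 52, 50 and 39 members in the 4 comparisons. Levels are CPM (counts scaled to library size) on 1 TMM scaling of all 10 libraries, and FPKM served to compare genes. No 2 libraries of a group were copies (chi-square per degree of freedom at least 147.6). The test was checked on simulated counts with the same variability in every gene and library. The Foxl1 negative libraries were not like that, with Spearman correlations of -0.308, -0.201 and -0.201 with each other. That check thus does not carry over to them. Members, role classes, related and marker lists and tests were chosen with earlier results of these data known. Values per library are given for the Timps and, in each role class, for up to 6 members with the highest group mean of at least 5 CPM. For some of these members they are given as ranges or for some groups alone. Other members and genes are named after their values were seen, except up to 3 genes with the smallest p of each related list. Alternatives were median-of-ratios scaling, filters, DESeq2 1.42.0, limma 3.58.1 (voom, and log2(FPKM + 1) or log2(FPKM + 0.1)), joint fits, other transcripts, a replicate block and leaving out libraries.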

Additional observations from a re-analysis of the deposited data

How the results depend on the processing

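Median-of-ratios scaling moved the median log2 fold change of all genes by -0.27, 0.20, -0.02 and -0.12 in the comparisons of Foxl1 positive with Foxl1 negative, Lgr5 positive and differentiated cells and of Lgr5 positive with differentiated cells, and gave 16, 18, 27 and 14 members called higher. No call turned its direction under any setting run. Against Foxl1 negative cells, 16 members were called higher, 26 with DESeq2, 5 with log2(FPKM + 1), 6 with log2(FPKM + 0.1), 4 without the FPKM filter and 16 to 29 without 1 library. The setting with genes counted in Foxl1 negative cells was chosen after seeing the data and gave 0 (3 at an unadjusted p under 0.05). None was called lower by any tool, with 18 members at an unadjusted p under 0.05 in either direction. Against Lgr5 positive cells, 17 were called higher, 40 with DESeq2, 9 with either pseudocount, 4 without the FPKM filter, 0 with all 10 libraries in 1 fit (28 at an unadjusted p under 0.05) and 0 to 25 without 1 library. None was lower, but 1 with log2(FPKM + 1) and 2 without its filter. Against differentiated epithelium, 27 were higher, 9 and 17 with the 2 pseudocounts, 3 without the FPKM filter, 0 in the joint fit (29 at an unadjusted p under 0.05) and 0 to 30 without 1 library. 1 was lower, 2 with DESeq2, 3 with voom, 2, 2 and 3 on FPKM, 0 in the joint fit and 0 to 2 without 1 library. Between the epithelial groups, 14 were higher and 11 lower, 6 and 7 with a filter of 1 CPM, 4 and 6 with either pseudocount, 11 and 7 without the FPKM filter, 0 and 0 with all 10 libraries (8 at an unadjusted p under 0.05), 1 and 2 with 7 libraries, and 7 to 16 and 8 to 13 without 1 library. A stricter filter tests fewer genes, and the cause of the other moves was not tested.

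Replicate numbers were not taken as pairs in the main tests. The correlations of same-numbered libraries were 0.0187, 0.0015 and 0.0420 between the mesenchymal groups and 0.258 between the epithelial groups. These values cannot exclude pairing, because the Foxl1 negative libraries were also unlike each other, and the other pairs of groups share only 2 numbers. With the replicate number as a block, 0 members were called higher than in Foxl1 negative cells (15 at an unadjusted p under 0.05), 29 higher and 2 lower than in Lgr5 positive cells, 30 higher and 2 lower than in differentiated epithelium, and 14 higher and 11 lower between the epithelial groups. In Foxl1 negative replicate 1, with 1311205 counts, 3 counts stand for 1.81 CPM, so a count of 0 there limits a level only to that.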
